A study of Saccharomyces cerevisiae with 15 samples.

Results

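The 10 genes described here act in purine nucleotide synthesis (ADE4, ADE8, ADE2, ADE1, ADE13 and ADE17), in purine salvage (HPT1 and AAH1) and in the cytosolic one-carbon pathway that feeds purine synthesis (MTD1 and SHM2). They were taken by gene symbol, with 1 probe set each, out of 5449 genes with a probe set on Affymetrix yeast arrays. The genes were chosen by their levels in these same arrays, each mutant set against its wild type, so their levels and fold changes are given as a description without a test. Cultures of budding yeast (Saccharomyces cerevisiae) in rich YPD medium were harvested at mid-log phase, and their total RNA was profiled on 15 arrays, 3 for each strain. The mutants lacked THP1, SUS1 or SAC3, each coding for a subunit of THSC/TREX-2, which couples transcription to mRNA export at the nuclear pore. Sus1 is also part of the SAGA complex, in the module that removes ubiquitin from histone H2B, so sus1∆ does not affect THSC/TREX-2 alone. The thp1∆ (thp1::KanMX, strain Y11764) and sus1∆ (sus1::KanMX, Y17455) mutants were set against BY4742, and sac3∆ (sac3::KanMX, Y03517) against BY4741. All strains carried his3∆1, leu2∆0 and ura3∆0; thp1∆, sus1∆ and BY4742 also carried lys2∆0, and sac3∆ and BY4741 also carried met15∆0 (MET15 is listed here as MET17). Each mutant was a single collection strain, so a change cannot be told apart from any other difference of that isolate. The comparisons asked whether mRNA levels change when a THSC/TREX-2 subunit is missing.

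Yeast builds the purine ring on phosphoribosyl pyrophosphate (PRPP) in a chain of steps that ends in IMP, from which AMP and GMP are made. Folate-bound one-carbon units are used at the steps of Ade8 and Ade17, and free adenine, hypoxanthine and guanine can be salvaged instead. The transcription factors Bas1 and Pho2 (also called Bas2) activate most genes of the pathway when adenine is scarce, and the same pair takes part in the activation of histidine genes such as HIS4. Rich medium supplies purine bases.

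The unit throughout is the model-based intensity in arbitrary units on a linear scale. Array medians lay between 1260.0 and 1460.2 units, and an array had 0 to 22 empty cells, except for BY4741 replicate 3 with 862. ADE13 and ADE17 were among the values missing there, so BY4741 had 2 arrays for these 2 genes. The deleted gene was at 19.9 units or less in its mutant, against 1341 units or more in BY4742 for THP1. SUS1 was at 22.8 units or less in sus1∆, against 763 or more in BY4742, and SAC3 at 16.8 or less in sac3∆, against 1302 or more in BY4741. Of the marker genes, LYS2 was at 77 units or less in the 9 arrays labelled lys2∆0 and MET17 at 25 units or less in the 6 labelled met15∆0. URA3 was at 39 units or less and LEU2 at 236 or less in every array, whereas HIS3, of which his3∆1 removes only a part, was between 1559 and 3246 units. The labels give MATa for every strain, but the a-specific genes MFA1 and MFA2 summed to 1062 to 4095 units in thp1∆, sus1∆ and BY4742, against 18905 to 27122 in sac3∆ and BY4741. The alpha-specific genes STE3 and SAG1 summed to 17931 to 27304 units in thp1∆, sus1∆ and BY4742, against 1050 to 1430 in sac3∆ and BY4741. These 2 and 2 were the listed genes with a value in every array, while STE2, BAR1 and STE6 were empty in 1 or 2 BY4741 arrays and MF(ALPHA)1 and MF(ALPHA)2 in all 9 arrays of thp1∆, sus1∆ and BY4742. Each mutant thus had the mating type pattern of its own wild type, and the contrast of BY4742 with BY4741 spans both patterns.

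In thp1∆ cells every one of the 10 genes was lower than in BY4742, by 1.78-fold to 3.86-fold, and in each gene all 3 thp1∆ arrays lay below all 3 BY4742 arrays. The median log2 fold change of the 10 genes was -1.23, against 0.06 over the 4231 genes tested. All 10 were called down, which required at least a 1.5-fold change, means more than 100 units apart and an adjusted p under 0.05. Of all genes tested, 6.17% were called down and 14.9% up, and 32.9% had every thp1∆ array below every BY4742 array. Because the genes were chosen on this contrast, these counts are read no further.

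Among the genes of de novo synthesis, ADE17 had the lowest fold change. ADE17 encodes one of the isozymes that carry out the final formylation and ring closure to IMP. It measured 2217, 1723 and 1627 units in the 3 thp1∆ arrays, against 7061, 7085 and 7126 in the BY4742 arrays. The groups were far apart, with a log2 fold change of -1.95 ± 0.19 (SE, n = 3 each), the third lowest of the 4231 genes tested. ADE1, which encodes SAICAR synthetase, had 3017, 2649 and 2422 units in thp1∆ and 6869, 6628 and 6710 in BY4742. The log2 fold change of ADE1 was -1.33 ± 0.19. ADE8, the glycinamide ribonucleotide transformylase gene, had 1882, 1528 and 1465 units in thp1∆ and 3619, 3596 and 3476 in BY4742. Its log2 fold change was -1.14 ± 0.09.

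ADE4 encodes the PRPP amidotransferase that starts the pathway. It averaged 1511 ± 44.1 units in thp1∆ and 2888 ± 119 units in BY4742 (SD, n = 3 each), a log2 fold change of -0.93 ± 0.20. ADE2, which encodes AIR carboxylase and whose loss gives red colonies, averaged 2684 ± 284 units in thp1∆ and 5194 ± 140 in BY4742, with a log2 fold change of -0.96 ± 0.19. The adenylosuccinate lyase gene ADE13 acts both on the way to IMP and from IMP to AMP. Its values were 4858, 4525 and 3628 units in thp1∆, against 7613, 7650 and 7768 in BY4742. At -0.83 ± 0.13 on the log2 scale ADE13 changed least of the 10 genes, and it still ranked 77th from the lowest of all genes tested.

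Both salvage genes were lower as well. HPT1, the hypoxanthine-guanine phosphoribosyltransferase gene, measured 1677, 1510 and 1551 units in thp1∆, against 5050, 5006 and 4671 in BY4742. The log2 fold change of HPT1 was -1.64 ± 0.13. AAH1 encodes adenine deaminase, which turns adenine into hypoxanthine. AAH1 had 1821, 1728 and 1259 units in thp1∆, against 4225, 4606 and 4433 in BY4742, a log2 fold change of -1.48 ± 0.12.

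Both one-carbon genes were lower too. MTD1, the cytosolic NAD-dependent methylenetetrahydrofolate dehydrogenase gene, had 1874, 1473 and 1561 units in thp1∆, against 5239, 4737 and 4659 in BY4742. That is a log2 fold change of -1.58 ± 0.27, where the SE also holds the wide spread of the BY4741 arrays (SD 1913 units, n = 3). SHM2 encodes the cytosolic serine hydroxymethyltransferase, which takes one-carbon units from serine. Its intensities were 6275, 5666 and 4441 units in thp1∆, against 9567, 9848 and 9689 in BY4742, and the log2 fold change was -0.84 ± 0.17.

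**Figure D1:**
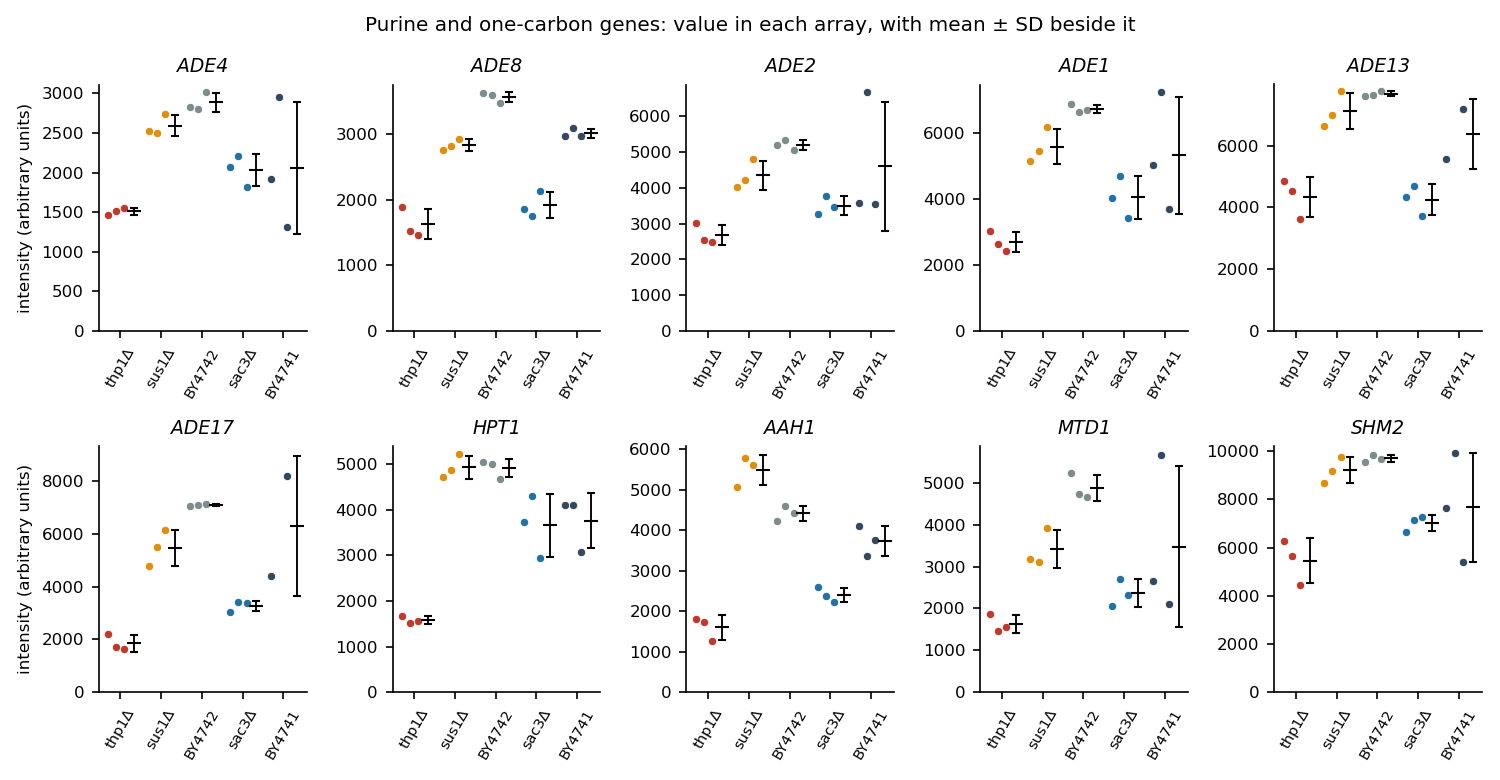
Intensity in arbitrary units (linear y axis from 0) of the 10 purine and one-carbon genes in each array (coloured points) of thp1∆, sus1∆, BY4742, sac3∆ and BY4741, with the strain mean and SD as a black bar to the right of the points. The thp1∆ points lie below every BY4742 point in all 10 panels, while the BY4741 points are widely spread in most panels.

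A measure that depends on RNA integrity moved with this contrast. The array carries probe sets at the 3′ and 5′ ends of 7 control transcripts, and for 7 of the 7 the 3′ signal over the 5′ signal was higher in all thp1∆ arrays than in all BY4742 arrays. For SRB4 the ratio was 8.84, 9.21 and 19.3 in thp1∆ replicates 1, 2 and 3, against 4.28 to 4.63 in BY4742. The median of the 10 genes, as the log2 difference from the BY4742 mean, was -1.07, -1.28 and -1.38 in the same 3 thp1∆ arrays. The sac3∆ arrays also had the higher ratio in 5 of the 7 controls, with SRB4 at 8.49 to 12.0 in sac3∆ against 6.09 to 7.01 in BY4741, and sus1∆ in 2 of the 7, EAF5 and RIP1. In SRB4 the sus1∆ arrays (4.59 to 5.16) overlapped with BY4742. Without thp1∆ replicate 3, which had the highest ratio of its strain in all 7 controls, the median log2 fold change of the 10 genes was -1.16, and the SRB4 ratios of the remaining thp1∆ arrays were still above those of BY4742. The part of RNA integrity in the values of the 10 genes was not tested.

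In sus1∆ cells, whose comparison shares the 3 BY4742 arrays, none of the 10 genes was called in either direction. The called share of all 4304 genes tested was 1.39% down and 3.46% up. The median log2 fold change of the 10 genes was -0.21, against 0.03 over all genes tested. All sus1∆ arrays lay below all BY4742 arrays in 6 of the 10 genes, a pattern found in 26.8% of all genes, and above them in 1, a pattern found in 39% of all genes.

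MTD1 had the lowest fold change in sus1∆, with 3183, 3116 and 3930 units in sus1∆ against 5239, 4737 and 4659 in BY4742 (log2 fold change -0.52 ± 0.27). ADE17 came next, with 4762, 5485 and 6123 units in sus1∆ and a log2 fold change of -0.39 ± 0.19. ADE8 was between 2756 and 2927 units in sus1∆, against 3476 to 3619 in BY4742 (-0.33 ± 0.09). ADE1, ADE2 and ADE4 were also below BY4742 in each sus1∆ array, with log2 fold changes of -0.27, -0.26 and -0.16. For ADE13 (-0.11) and SHM2 (-0.08) the arrays of the strains overlapped. HPT1 did not separate the strains, with 4925 ± 251 units in sus1∆ and 4909 ± 207 in BY4742 (SD, n = 3 each). AAH1 was the exception in direction, with 5080, 5782 and 5608 units in sus1∆, all above the 4225, 4606 and 4433 units in BY4742 (log2 fold change 0.31 ± 0.12). The 2 salvage genes were therefore the 2 that were not lower in sus1∆, although HPT1 turned to -0.07 when all arrays were set to the same median.

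**Figure D2:**
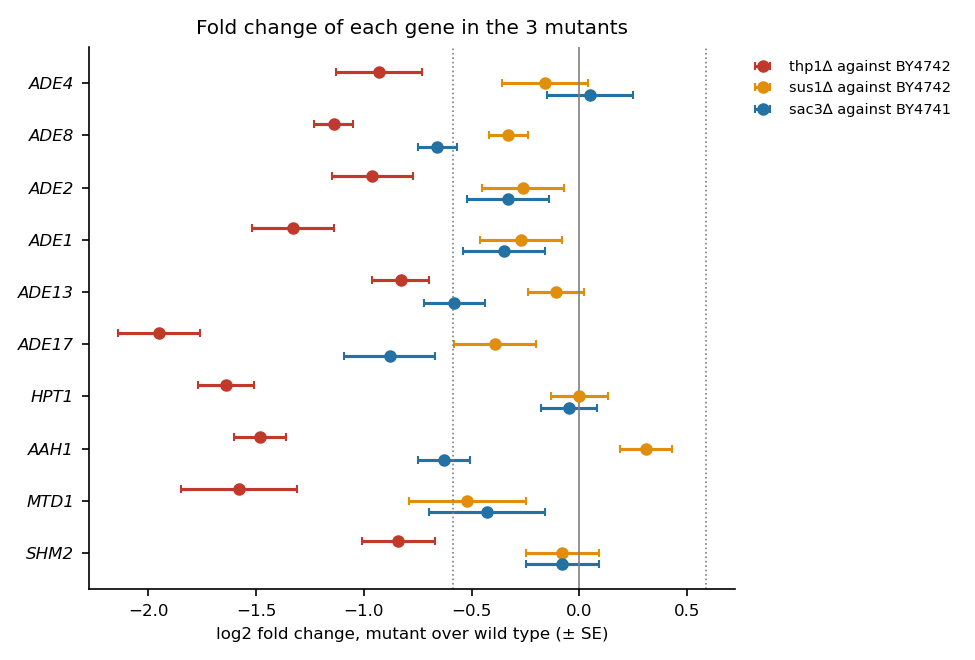
Log2 fold change of each of the 10 genes, mutant over wild type, with the standard error of the fit (x axis), for thp1∆ against BY4742, sus1∆ against BY4742 and sac3∆ against BY4741. Dotted lines mark the 1.5-fold limits; the thp1∆ points all lie beyond the lower limit, the sus1∆ points all lie within both limits, and the sac3∆ points of ADE17, ADE8 and AAH1 lie beyond the lower one.

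In sac3∆ cells the picture was mixed. ADE17, ADE8 and AAH1 were called down and 7 of the 10 genes were not called, whereas 3.25% of the 4308 genes tested were called down and 8.84% up. The median log2 fold change of the 10 genes was -0.39, against 0.06 over all genes tested. In 4 of the 10 genes every sac3∆ array was below every BY4741 array (18.3% of all genes), and in none were they all above (26.9% of all genes).

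ADE8 had 1863, 1751 and 2132 units in sac3∆, against 2972, 3083 and 2968 in BY4741. The strains were well apart, with a log2 fold change of -0.66 ± 0.09. AAH1 measured 2597, 2385 and 2239 units in sac3∆, against 4106, 3357 and 3761 in BY4741 (-0.63 ± 0.12). ADE17 had 3055, 3398 and 3361 units in sac3∆, against 4414 and 8166 in the 2 BY4741 arrays with a value. Its log2 fold change of -0.88 ± 0.21 thus rested on a pair of wild-type arrays that lay farther from each other than the strain means did. ADE13 was just under the 1.5-fold limit (-0.58 ± 0.14), with 4318, 4704 and 3732 units in sac3∆ against 5572 and 7178 in BY4741, and did not overlap.

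The other 6 genes overlapped between sac3∆ and BY4741. Their log2 fold changes were -0.43 for MTD1, -0.35 for ADE1, -0.33 for ADE2, -0.08 for SHM2, -0.05 for HPT1 and 0.05 for ADE4. ADE4 averaged 2034 ± 199 units in sac3∆ and 2063 ± 834 in BY4741 (SD, n = 3 each), and its fold change turned to -0.07 when array medians were set equal. HPT1 averaged 3651 ± 683 units in sac3∆ and 3757 ± 598 in BY4741, while its fold change in thp1∆ ranked 8th from the lowest of all genes tested.

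The sac3∆ calls of ADE17 and AAH1 depended on single arrays. ADE8 was called down in each of the 6 fits that left out 1 array of the contrast. Without BY4741 replicate 2 only ADE8 and AAH1 were called, the median of the 10 genes was -0.07 and ADE17 was at -0.43. ADE17 then had a single BY4741 array with a value. Without BY4741 replicate 3, ADE8, ADE1, ADE17, AAH1 and MTD1 were called and the median was -0.58. Without BY4741 replicate 1, AAH1 was not called and ADE17 was at -1.32. ADE17 and ADE13 each had a single BY4741 array with a value in that fit. ADE13 was called with ADE8, ADE17 and AAH1 when either sac3∆ replicate 1 or sac3∆ replicate 2 was left out. AAH1 was also not called without sac3∆ replicate 3.

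The wild types themselves differed in how steady these genes were. In BY4742 the 3 arrays nearly coincided, with a median SD of 0.035 on the log2 scale over the 10 genes, against 0.053 over all genes. In BY4741 the median SD of the 10 genes was 0.462, against 0.155 over all genes. BY4741 replicate 2 was the highest of its strain in 8 of the 10 genes, while 36.1% of all genes had their highest BY4741 value in that array. MTD1 was 2.39-fold higher in replicate 2 (5663 units) than in the mean of the other BY4741 arrays (2664 and 2105 units). ADE2 was 1.88-fold higher there, ADE4 1.87-fold, ADE1 1.67-fold and SHM2 1.54-fold, and ADE17 was 1.85-fold higher than in the single other array. ADE13 and HPT1 were 1.29-fold and 1.16-fold higher, whereas ADE8 was at 1.04-fold and AAH1 at 0.854-fold.

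**Figure D3:**
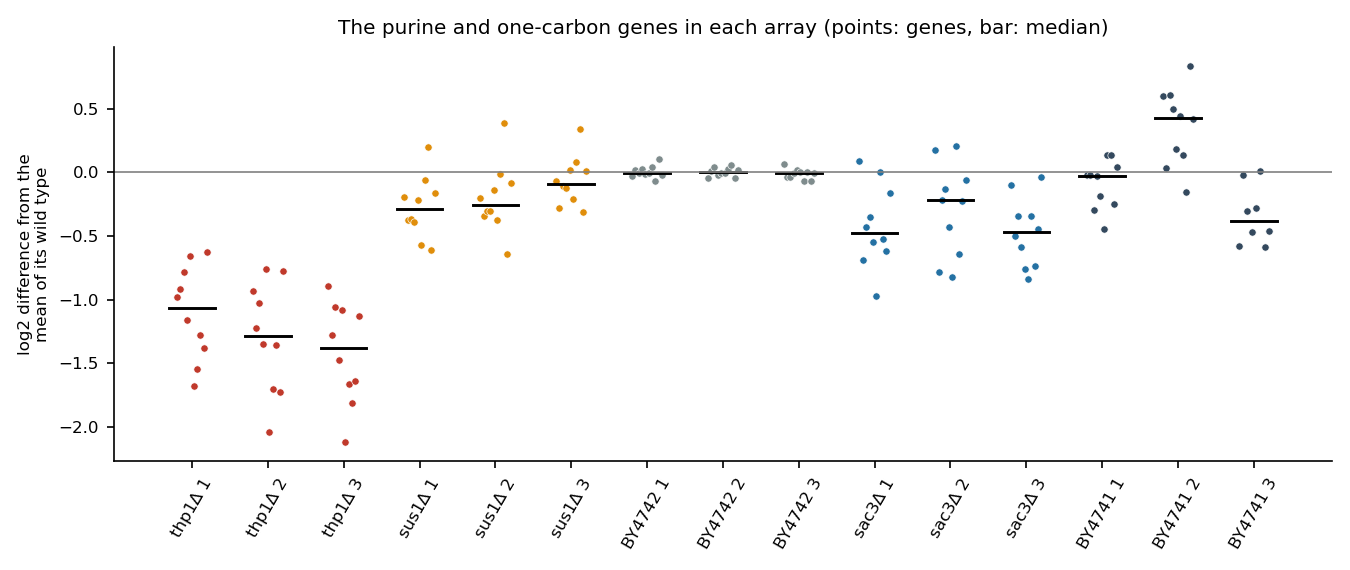
Log2 difference of each of the 10 genes (points) from the mean of its wild type, BY4742 for thp1∆, sus1∆ and BY4742 and BY4741 for sac3∆ and BY4741, in each of the 15 arrays, with the median over the genes as a bar (8 genes in BY4741 replicate 3). The medians are -1.07 to -1.38 in thp1∆, -0.29 to -0.09 in sus1∆, -0.48 to -0.22 in sac3∆, and -0.02, 0.43 and -0.38 in BY4741 replicates 1, 2 and 3.

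Expressed as a share of its own wild type, the median of the 10 genes was 47.7%, 41.1% and 38.5% in the 3 thp1∆ arrays and 81.7%, 83.9% and 93.9% in the sus1∆ arrays. It was 71.9%, 85.9% and 72.2% in the sac3∆ arrays, and 98.3%, 135% and 76.7% in the BY4741 arrays. On this measure 1 sac3∆ array lay within the range of BY4741 and the others just below it, while the thp1∆ arrays were far below BY4742 (99.8% to 100%). The array thp1∆ replicate 1 was the highest of its strain in 9 genes, sus1∆ replicate 3 in 9 genes and sac3∆ replicate 2 in 7 genes. The corresponding shares of all genes were 34.1%, 27.7% and 38%.

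All 10 genes were higher in BY4742 than in BY4741, by 0.24 to 0.62 on the log2 scale with a median of 0.33, against -0.01 over the 4291 genes tested. None of the 10 was called, and 0.909% of all genes were called up and 0.186% down. In ADE8, ADE13, HPT1 and AAH1 every BY4742 array was above every BY4741 array, which held for 12.7% of all genes, and the opposite held for 16.2% of all genes and none of the 10. MTD1 had the largest log2 fold change (0.62), with 4878 ± 315 units in BY4742 and 3478 ± 1913 in BY4741 (SD, n = 3 each). Without BY4741 replicate 2, the array described above, ADE4, ADE1, MTD1 and SHM2 were called up in BY4742. For ADE17 that fit left a single BY4741 array with a value, as did the fit without BY4741 replicate 1, in which ADE17 turned to -0.20. The contrast shares its arrays with the mutant comparisons.

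Ordered by mean intensity over the 5 strains, 9 of the 10 genes were lowest in thp1∆ and next lowest in sac3∆. ADE13 was the other one, with 4251 ± 490 units in sac3∆ and 4337 ± 636 in thp1∆ (SD, n = 3 each), which overlapped. BY4742 was the highest strain in 8 genes, and sus1∆ in HPT1 and AAH1. Neighbours in this order overlapped in 19 of 40 cases, and BY4741 was one of the pair in 14 of the 19. All thp1∆ arrays lay below all sac3∆ arrays in 8 of the 10 genes, the exceptions being ADE8 and ADE13. The shares of all genes with these orders and overlaps were not computed, and thp1∆ and sac3∆ have different wild types. Since the genes were chosen by their levels in these arrays, these counts are read no further. In AAH1 all 5 strains were apart, in the order thp1∆, sac3∆, BY4741, BY4742 and sus1∆.

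The 10 genes lay on 7 chromosomes, and their coding lengths ran from 645 to 1779 bases with a median of 1227, against 1236 for all genes.

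The rest of the pathway was followed through a list of other purine, folate and PRPP genes, the regulators and the Bas1-dependent histidine genes, of which 44 had a probe set and 42 passed the filter on low values in each mutant comparison (GUD1 and MET13 did not). The list was written with earlier results of these data known, so its shares are a description and no independent support. In thp1∆, 8 of the 42 fell (19%, against 6.17% of all genes) and 1 rose (2.38%, against 14.9% of all genes), and their median log2 fold change was -0.12. Of the 3 other genes of the de novo route, ADE12 and ADE6 fell. ADE12, which encodes the adenylosuccinate synthetase that takes IMP towards AMP, had 2668, 2556 and 2621 units in thp1∆ against 5579, 5752 and 5595 in BY4742. The strains did not overlap, and the log2 fold change was -1.11 ± 0.12 (SE, n = 3 each; limma, adjusted p = 3.82e-06). ADE6, the gene of the FGAM synthetase, fell to 5304 ± 464 units in thp1∆, against 8275 ± 231 in BY4742 (SD, n = 3 each), a log2 fold change of -0.64 (limma, adjusted p = 1.86e-05). ADE16, the isozyme gene of ADE17, showed no such difference, with 4854, 4837 and 4491 units in thp1∆ against 4682, 4839 and 4911 in BY4742 (log2 fold change -0.03 ± 0.08, limma, adjusted p = 0.795).

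In salvage, 2 of 10 tested genes fell in thp1∆. APT1, the adenine phosphoribosyltransferase gene, had 3439, 3311 and 3404 units in thp1∆, against 5298, 5473 and 5210 in BY4742 (log2 fold change -0.65, limma, adjusted p = 4.34e-06). FCY2, which encodes the purine-cytosine permease of the plasma membrane, had 4213, 4517 and 4190 units in thp1∆, against 7646, 7046 and 7501 in BY4742 (-0.78, adjusted p = 1.33e-05, limma). Both separated the strains in every array. In the guanine branch 2 of 5 genes fell, and both encode IMP dehydrogenase, the enzyme that commits IMP to GMP. IMD3 had 4279, 4205 and 3910 units in thp1∆, against 7503, 7460 and 7632 in BY4742 (-0.87, limma, adjusted p = 1.02e-07). IMD2 had 2071, 2156 and 1784 units in thp1∆, against 3631, 3793 and 3706 in BY4742 (-0.89 ± 0.30, limma, adjusted p = 0.0202). Its SE also holds the spread of the BY4741 arrays, in which IMD2 measured 4139, 4291 and 1435 units. Its probe set may read related copies of the family, which was not tested. Without thp1∆ replicate 3 the limma adjusted p of IMD2 was 0.0639 and it was not called. ADE6 was also not called without that array, since its log2 fold change was then -0.57.

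Of the 5 PRPP synthetase genes, PRS4 fell in thp1∆, with 1784, 1650 and 1618 units against 3168, 3346 and 3289 in BY4742 (log2 fold change -0.96 ± 0.07, limma, adjusted p = 1.18e-07). The other 4 were not called, with log2 fold changes between -0.49 and -0.12 and every thp1∆ array below every BY4742 array in each. None of the 14 tested folate and one-carbon genes was called in thp1∆, their median being -0.02. SHM1, the mitochondrial counterpart of SHM2, was at 0.24 ± 0.05 (limma, adjusted p = 0.00148), and MIS1, the mitochondrial C1-tetrahydrofolate synthase gene, at -0.43 ± 0.08 (adjusted p = 0.000649, limma). The cytosolic counterpart ADE3 was at -0.30 ± 0.09. These 3 values were below the 1.5-fold limit. MET12, a methylenetetrahydrofolate reductase gene, was just under the 1.5-fold limit in the other direction, at 0.58 ± 0.08 (limma, adjusted p = 3.31e-05) with every thp1∆ array above every BY4742 array, and was called up without thp1∆ replicate 3 or without BY4742 replicate 1.

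HIS4, a histidine synthesis gene under Bas1 and Pho2, fell to 1825, 1750 and 1977 units in thp1∆, against 6241, 6322 and 6260 in BY4742. The log2 fold change was -1.76 ± 0.11 (limma, adjusted p = 6.74e-08), the seventh lowest of all genes tested. The other histidine gene of the list, HIS7, was at -0.29 ± 0.06 and was not called.

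**Figure D4:**
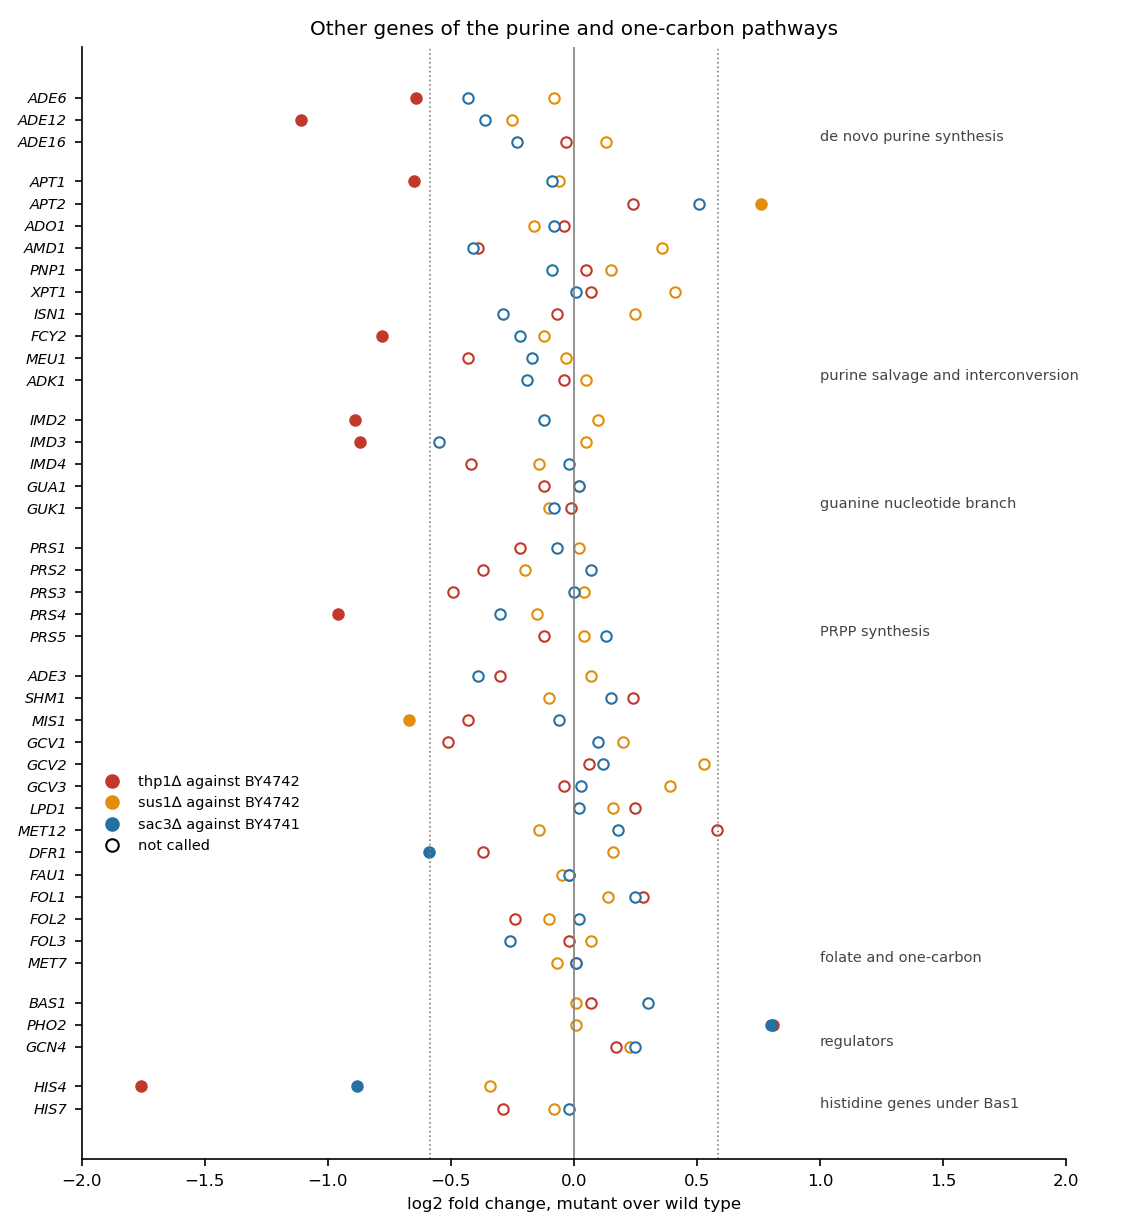
Log2 fold change (x axis, mutant over wild type) of the 42 other pathway genes that passed the filter, grouped by list, for thp1∆ against BY4742, sus1∆ against BY4742 and sac3∆ against BY4741. Filled points were called (adjusted p under 0.05, at least 1.5-fold, difference above 100 units), open points were not, and dotted lines mark 1.5-fold; the lowest point is HIS4 in thp1∆ at -1.76.

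In sus1∆ 1 of the 42 genes fell (2.38%, against 1.39% of all genes) and 1 rose (2.38%, against 3.46%), with a median of 0.02, so both shares were near those of all genes. MIS1 fell to 3358, 3377 and 3302 units in sus1∆, against 5165, 5287 and 5555 in BY4742 (log2 fold change -0.67 ± 0.08, limma, adjusted p = 0.000105). APT2, the second adenine phosphoribosyltransferase gene, rose to 2625, 2996 and 2949 units in sus1∆, against 1687, 1702 and 1659 in BY4742 (0.76 ± 0.07, adjusted p = 1.14e-05, limma). Both genes had no overlap between the strains.

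In sac3∆ 2 of the 42 genes fell (4.76%, against 3.25% of all genes) and 1 rose (2.38%, against 8.84%), with a median of -0.04, so the share that fell was near that of all genes. HIS4 fell to 2523, 2415 and 2504 units in sac3∆, against 4485, 5527 and 3818 in BY4741 (log2 fold change -0.88 ± 0.11, limma, adjusted p = 6.21e-05). DFR1, the dihydrofolate reductase gene, had 1278, 1007 and 1421 units in sac3∆ against 1996 and 1691 in the BY4741 arrays with a value (-0.59 ± 0.13, limma, adjusted p = 0.00307). Its fold change was at the 1.5-fold limit, and the call was lost without BY4741 replicate 1 (-0.47) or without sac3∆ replicate 2 (-0.45). The first of these fits left a single BY4741 array with a DFR1 value. ADE12 was at -0.36 ± 0.12 in sac3∆ (limma, adjusted p = 0.0213) and IMD3 at -0.55 ± 0.06 (adjusted p = 3.01e-05, limma), both below the 1.5-fold limit, but IMD3 was called down (-0.64, limma, adjusted p = 1.07e-05) when array medians were set equal. IMD2 was not called in sac3∆, at -0.12 ± 0.30 (limma, adjusted p = 0.762) with overlapping arrays. Without BY4741 replicate 3, in which IMD2 measured 1435 units, it was at -0.64 and called down.

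None of the activator genes was called down in any mutant. PHO2 rose to 1101, 1328 and 1310 units in thp1∆, against 663, 731 and 735 in BY4742 (log2 fold change 0.81 ± 0.12, limma, adjusted p = 6.78e-05). It rose likewise to 1265, 1447 and 1079 units in sac3∆, against 664, 842 and 676 in BY4741 (0.80 ± 0.12, adjusted p = 0.00017, limma). In sus1∆, PHO2 was at 715 ± 42.8 units, against 709 ± 40.7 in BY4742 (SD, n = 3 each). BAS1 was not called in any mutant, with log2 fold changes of 0.07 in thp1∆, 0.01 in sus1∆ and 0.30 in sac3∆. GCN4, the activator of amino acid synthesis genes that also acts on HIS4, was above wild type in every mutant array, at 0.17 in thp1∆, 0.23 in sus1∆ and 0.25 in sac3∆, each below the 1.5-fold limit. These are mRNA levels, and GCN4 is controlled mainly at translation.

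**Figure D5:**
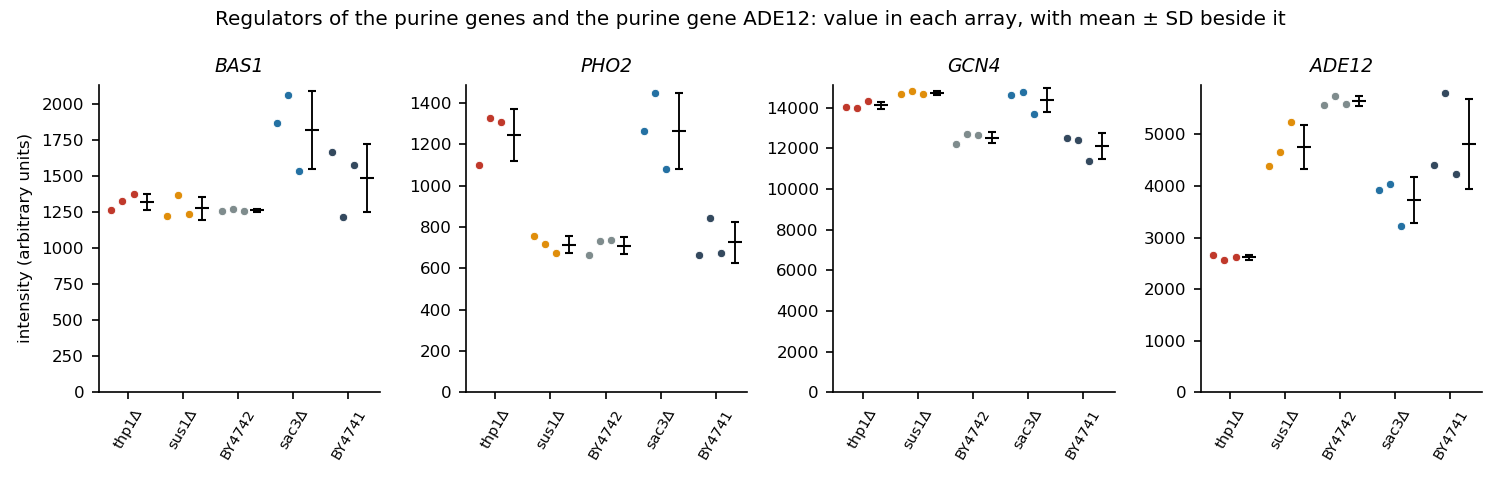
Intensity in arbitrary units (linear y axis from 0) of BAS1, PHO2, GCN4 and ADE12 in each array (coloured points) of the 5 strains, with mean and SD as a black bar. PHO2 is higher in thp1∆ and sac3∆ than in BY4742 and BY4741, BAS1 and GCN4 pass no call in any mutant, and ADE12 is lowest in thp1∆.

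The genes most like the set were looked for among 3655 genes with a value in all 15 arrays, by Pearson's r with the mean centred log2 profile of the 10 genes. This is a description over 15 arrays of 5 strains, in which arrays of a strain are not independent points, and the profile of BY4741 replicate 3 rests on 8 genes. ADE12 came first (r = 0.970, Spearman's rho 0.964), and HIS4 was also among the first 10 (r = 0.955, rho 0.946). Of amino acid synthesis genes, ARO3 of the aromatic pathway (r = 0.965) and ILV2 of the branched-chain pathway (r = 0.952) were among the first 10, with log2 fold changes in thp1∆ of -0.41 and -0.39. The histidine permease gene HIP1 (r = 0.931) was at -1.05 in thp1∆, -0.25 in sus1∆ and -0.53 in sac3∆. RPL6B and RPS7B, which encode ribosomal proteins, EFM4, ETT1 and PUB1 made up the rest, with r between 0.929 and 0.942. EFM4 had the lowest log2 fold change of these in thp1∆, at -1.31. Of the first 10 by r, 5 were also among the first 10 by rho. Within the set, each gene followed the mean of the other 9 with r between 0.856 for AAH1 and 0.988 for ADE17. The genes were chosen by their levels in these same arrays, so a high r is in part set by that choice and is no support.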

How the data were processed

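Total RNA from 5 yeast strains was measured on Affymetrix arrays, 3 per strain; the labels call them biological replicates without naming separate cultures, so p-values measure only the spread between these samples, and the number of arrays limits precision. The authors normalised the arrays to an invariant set in dChip (version not given in the sources used here), fitted the perfect-match probes and deposited 1 intensity per probe set in arbitrary units, leaving model outliers empty. Of 5900 probe sets, 137 controls were left out and 5498 matched 1 gene through the platform annotation (5449 genes; for 47 with several probe sets, the one with the highest mean was taken).

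Deposited intensities were put on the log2 scale without pseudocount or further scaling and fitted with limma 3.58.1 in R 4.3.3 (5 strain means, all 15 arrays, eBayes). The SE and p-value of a contrast therefore use the spread within all 5 strains, also of those not compared. After the study's methods, a gene was removed where 50% or more of the 6 arrays compared were below 600 units, and a gene was called at a fold change of 1.5, a difference of means above 100 and a Benjamini-Hochberg adjusted p under 0.05 over all genes tested. The script was tested on simulated data without empty cells, in which every array had the spread of BY4742. That test does not cover the wider spread and the empty cells of BY4741. Named were the 10 members, each listed pathway gene called in a mutant, BAS1, PHO2, GCN4, and the 10 genes most like the members. The members and lists were chosen with earlier results of these data known. Responses of 2 mutants were compared by contrasts of the same fit.

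Same-numbered sus1∆ and BY4742 arrays deviated together (r = 0.183, 0.13 and 0.111), so by that check their numbers may pair them. Same-numbered sac3∆ and BY4741 arrays had r of 0.284, 0.065 and 0.27, but sac3∆ replicate 2 with BY4741 replicate 1 had 0.261. That comparison and the remaining ones did not pass the check. Alternatives were array scaling, quantile normalisation, only the compared arrays, no filter, the methods' unadjusted criteria, a replicate block and leaving out each array. Names came from the annotation tables; the assembly of the array design was not given in the sources used here, so no coordinates are printed, and ADE5,7 was not analysed here.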

Additional observations from a re-analysis of the deposited data

Results flagged for a closer look

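AAH1 was singled out because all arrays of one mutant moved against all arrays of the others. Its log2 fold change was -1.48 in thp1∆, 0.31 in sus1∆ and -0.63 in sac3∆. No test of this difference is given, since AAH1 was chosen on these comparisons.

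Other pathway genes were singled out where the responses of a pair of mutants differed in a test of the difference itself (limma, adjusted over all genes, with a difference of at least 1.5-fold). The thp1∆ response minus the sus1∆ response, which share the BY4742 arrays, was -1.42 for HIS4 (limma, adjusted p = 5.09e-07), -0.99 for IMD2, -0.91 for IMD3, -0.86 for ADE12, -0.81 for PRS4, -0.66 for FCY2 and -0.60 for APT1, and 0.80 for PHO2, with adjusted p of 0.0134 for IMD2 and lower for the others. In all of these the thp1∆ arrays lay apart from the BY4742 arrays. The thp1∆ response minus the sac3∆ response was -0.89 for HIS4 (limma, adjusted p = 0.00422), -0.75 for ADE12 (adjusted p = 0.00905, limma) and -0.65 for PRS4 (limma, adjusted p = 0.00168). Relative to their own wild types, these 3 genes were thus lower in thp1∆ than in sac3∆. The contrast includes the difference between the wild types: HIS4, ADE12 and PRS4 were higher in BY4742 than in BY4741, by 0.46, 0.24 and 0.22 on the log2 scale. The sac3∆ response minus the sus1∆ response was 0.78 for PHO2, 0.61 for MIS1, -0.59 for IMD3 and -0.75 for DFR1, with limma adjusted p between 0.000352 and 0.00715. For PHO2 the responses of thp1∆ and sac3∆ were 0.81 and 0.80, and their difference of 0.01 ± 0.17 did not pass the test (limma, adjusted p = 0.958).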

How the results depend on the processing

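The number of the 10 genes called down was 10 in thp1∆ and 0 in sus1∆ under each of the alternatives run, which is no support, since the genes were chosen on these values. No log2 fold change called with the settings of the report changed its sign under an alternative. In sac3∆, 3 of the 10 were called; leaving out 1 array gave 2 to 5, equal medians or quantile normalisation 4, and only the 6 arrays or the methods' criteria 2. In BY4742 against BY4741, ADE4, ADE1, MTD1 and SHM2 were called up without BY4741 replicate 2, where ADE17 had a single BY4741 array. None of the 10 was called up with any other array left out. Other pathway genes called down in sac3∆ numbered 1 with only the 6 arrays and 1 by the methods' criteria, which both lost DFR1, and 1 to 3 with an array left out. Those called up numbered 1 to 2 in thp1∆ and 1 to 2 in sus1∆ with an array left out.

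The replicate block left 10, 0 and 3 of the 10 genes called down in thp1∆, sus1∆ and sac3∆ and changed no call of a gene named above. Setting array medians equal moved the median of all genes in thp1∆ to -0.07 from 0.06 and the counts called up and down to 468 and 451 from 631 and 261. In sac3∆ they became 265 and 247 from 381 and 140, and in sus1∆ 98 and 91 from 149 and 60. Quantile normalisation gave 428 down in thp1∆ and 227 in sac3∆, and no filter gave 414 down in thp1∆, 245 down in sac3∆ and 246 up in sus1∆. In BY4742 against BY4741 the 39 genes called up became 19 to 77 and the 8 called down became 5 to 32 over the alternatives. The causes of these shifts were not tested. The search for promoter motifs was not run, since no sequence was used here. Low intensity limits GUD1 and MET13, which fell below the filter and were not tested.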

Other observations

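Some pathway genes passed the test without reaching a 1.5-fold change; those given here were picked after their values were seen. AMD1, the AMP deaminase gene, which returns AMP to IMP, had the same signs as AAH1 in the 3 mutants. Its log2 fold change was -0.39 in thp1∆ (limma, adjusted p = 0.00632), 0.36 in sus1∆ (limma, adjusted p = 0.0211) and -0.41 in sac3∆ (limma, adjusted p = 0.00678), and in each comparison the arrays of the strains did not overlap. A test of the difference between mutants is not given here for AMD1. In sus1∆ the xanthine phosphoribosyltransferase gene XPT1 averaged 2572 ± 67.8 units, against 1939 ± 88.7 in BY4742 (SD, n = 3 each), a log2 fold change of 0.41 (limma, adjusted p = 0.00221). GCV2 and GCV3, which encode subunits of the mitochondrial glycine cleavage complex, were at 0.53 (limma, adjusted p = 0.0314) and 0.39 (limma, adjusted p = 0.0177) in sus1∆. Under the same fit, GCV1 of that complex was at 0.20 ± 0.21 in sus1∆ and overlapped with BY4742.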
